A study of Mus musculus with 8 samples.

Results

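The vanins and the enzymes of coenzyme A synthesis comprise 8 mouse genes here, namely the vanin genes Vnn1 and Vnn3, the pantothenate kinase genes Pank1, Pank2 and Pank3, and Ppcs, Ppcdc and Coasy. They were found by their symbols among the probe sets of the array, which gave 8 of 18193 named genes and 18 of 45037 probe sets, array controls aside. The family was chosen by the measured signal of Vnn1, which had the largest rise among the brighter genes after Wt1 siRNA, so the difference of Vnn1 is described and not tested. The other 7 genes were taken by their role in the pathway. A further probe set annotated to Ppcs together with another gene was left out.

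Vanins are pantetheinases, enzymes on the cell surface or secreted that split pantetheine into pantothenate (vitamin B5) and cysteamine. Pantothenate is the starting point of coenzyme A, the carrier of acyl groups in fatty acid and energy metabolism. Pantothenate kinases phosphorylate it in the rate-limiting step, PPCS joins the product to cysteine, PPCDC removes a carboxyl group, and the bifunctional enzyme COASY completes the molecule. Vnn1 is known in mouse kidney tubules, intestine and liver, and in mouse liver it is a target of the fatty acid receptor PPAR alpha.

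The immortalized line LB-22, made from kidney of mouse embryos, was given 25 pmol of siRNA with a lipid reagent for 6 h. The 4 Wt1 siRNA arrays hold cells that received an siRNA against Wt1, the gene of a transcription factor with zinc fingers that kidney development needs. The 4 control siRNA arrays hold cells that received a scrambled siRNA. Both groups were expanded at 33 °C with 10 U/ml interferon gamma and moved to 37 °C without it at transfection, and total RNA was taken 48 h after transfection for 8 Affymetrix Mouse430_2 arrays. Nothing in the labels tells separate cultures from repeats of 1 culture, so the spread behind each p-value is that of these samples and may be technical. The labels name no siRNA sequence and no clone.

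Wt1 had a signal of 1316.8 to 1913.9 on the 4 Wt1 siRNA arrays, against 7129.4 to 8396.8 on the 4 control siRNA arrays (p = 0.0286 by a two-sided exact permutation test, a value that no design of this size can go below). The number of arrays limits the precision. All 8 arrays had the same trimmed mean signal of 1500, and 27 control probe sets for bacterial transcripts, which mark background, reached at most 227.2. The brighter part of the probe sets (22518, a share of 0.5 by mean log2 signal) was tested with limma, and 2430 were higher and 2764 lower after Wt1 siRNA at an adjusted p under 0.05. With median centring, which subtracts from each array its own median log2 signal, every log2 difference was 0.108 higher and the split was 2459 higher and 1369 lower. The 3′ to 5′ signal ratio of the array's Gapdh control, a sign of RNA integrity, was 0.81 to 0.891 on Wt1 siRNA arrays and 0.793 to 0.913 on control siRNA arrays.

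Of the labelled tissue, 6 of 10 measured markers of embryonic kidney mesenchyme and stroma lay above the highest background control on all 8 arrays. They were Osr1, Six2, Eya1, Col1a1, Vim and Tcf21, of which Tcf21 came as low as 230.7. The nephron progenitor gene Sall1, the stromal gene Foxd1, Pdgfra and Pdgfrb did not. Of 6 measured markers of kidney epithelium, 5 lay above it on all arrays too. In bulk RNA, fewer cells of a type and less RNA per cell cannot be told apart.

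Vnn1 encodes vanin 1, and both of its probe sets were about 4-fold higher after Wt1 siRNA. On probe set 1418486_at the signals were 4404.2, 5447.2, 5168.9 and 4009.3 on Wt1 siRNA arrays 1 to 4, against 1196.9, 1268.7, 1234.5 and 1102.7 on control siRNA arrays 1 to 4. All 4 Wt1 siRNA arrays lay far above every control siRNA array. The mean was 4757 ± 666 after Wt1 siRNA and 1201 ± 71.6 after control siRNA (SD, n = 4 each), a log2 difference of 1.98 ± 0.11 (SE of the fit) and a fold of 3.94.

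On the other Vnn1 probe set, 1447845_s_at, the signals were 1136.9, 1383.2, 1271.2 and 874.4 on Wt1 siRNA arrays 1 to 4, against 288.6, 335.7, 310.8 and 208.9 on control siRNA arrays 1 to 4. Here too the groups did not overlap, and control siRNA array 4 lay under the highest background control. The control siRNA mean of 286 was under the lowest mean of the tested probe sets, 291.1. The log2 difference was 2.03 ± 0.21, a fold of 4.08, which differs from that of 1418486_at by 0.05. Its suffix marks it as able to match several transcripts.

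With the brightest probe set for each gene, the rise of 1418486_at ranked first among the 9096 genes in the brighter part of all genes, ahead of Cgref1 at 1.96. Among all 22518 tested probe sets, dimmer ones included, 1418486_at ranked 7 and 1447845_s_at ranked 6. Within each group the probe sets of Vnn1 put the arrays in the same order, with replicate 2 highest and replicate 4 lowest in both groups. Their deviations from the group means correlated at 0.891 over the 8 arrays, which both probe sets share. Leaving out any single array kept 1418486_at between 1.91 and 2.06 and 1447845_s_at between 1.89 and 2.16.

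Vnn3 encodes the other vanin measured and lies next to Vnn1 in the RefSeq gene table. Its probe set, 1420723_at, had signals of 289.8, 249.1, 72.3 and 222.1 on Wt1 siRNA arrays 1 to 4, against 146.3, 252.0, 134.7 and 375.7 on control siRNA arrays 1 to 4. The groups overlapped, and 2 arrays of each group lay above the highest background control. Vnn3 was too dim for the tested part of the probe sets and is given as measured, with means of 208 ± 94.9 after Wt1 siRNA and 227 ± 112 after control siRNA (SD, n = 4 each).

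**Figure D1:**
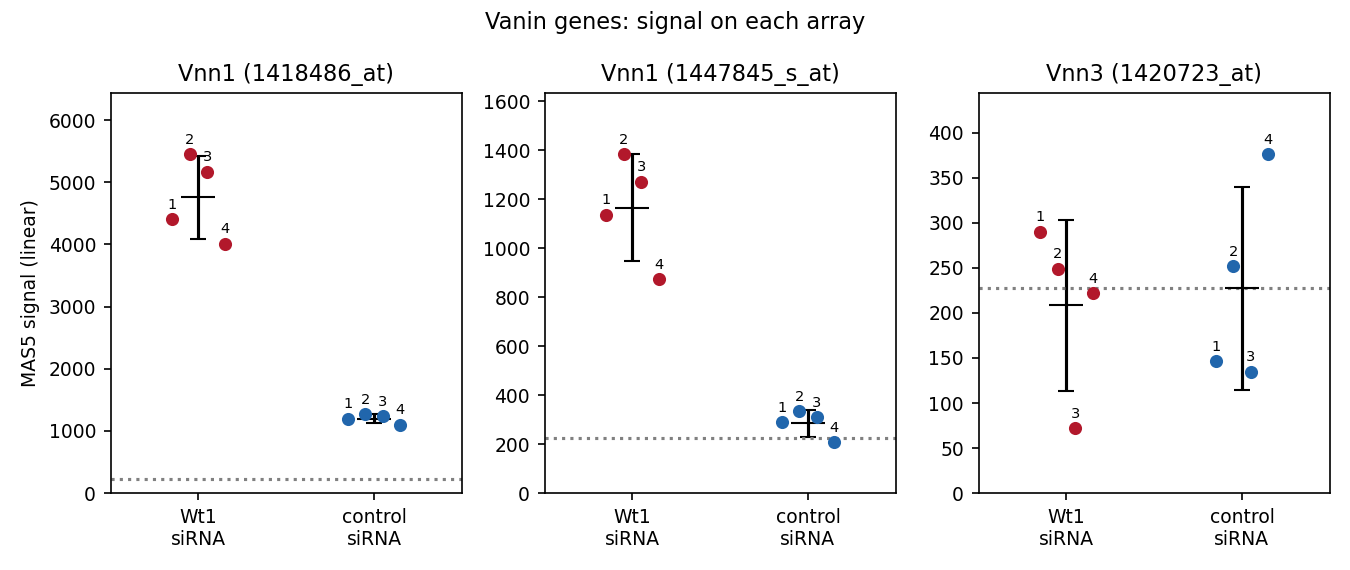
MAS5 signal of the vanin probe sets on each array (points numbered by replicate), with the group mean and SD as a bar; the dotted line is the highest background control at 227.2, and each panel has its own linear axis from 0. Both Vnn1 probe sets are higher on all 4 Wt1 siRNA arrays, while Vnn3 overlaps between the groups near background.

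Beyond Vnn3, the transporter gene Slc18b1 had a mean of 1081 ± 80.2 after Wt1 siRNA and 1034 ± 146.5 after control siRNA (SD, n = 4 each; log2 0.07 ± 0.13, limma adjusted p = 0.744). Taar1, an amine receptor gene beyond Vnn1, was not tested, with means of 232 ± 95.3 after Wt1 siRNA and 192 ± 134 after control siRNA. Of the 3 genes on either side of Vnn1, Snord100, Taar2 and Taar3 had no probe set named here.

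None of the other members passed the test as higher, and Pank2 and Pank3 each had a probe set that was lower. Of the 16 probe sets of the other 7 genes, 13 were bright enough to be tested, 2 were lower, 0 were higher and 11 did not pass. The 2 lower probe sets, of Pank2 and Pank3, are 15.4% of the 13. Among all tested probe sets 12.3% were lower, 10.8% higher and 23.1% called in either direction. At an unadjusted p under 0.05, 0 of the 13 were higher with limma. Groups did not overlap for 4 of the 13 (30.8%), against 27.0% of all tested probe sets. The median log2 difference of the 13 was -0.07, against -0.01 over all tested probe sets. With median centring the 2 tested probe sets of Ppcdc nearest to 0 and 1426259_at of Pank3 changed sign, and none of them passed in either setting.

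The promoters of Pank2 and Pank3 are shown because these genes carried the lower probe sets. The sequences are from RefSeq (GRCm38.p6) and run from 250 bases before to 50 bases after an annotated start. They were searched on both strands for GCGNGGGNG, a 9-base motif of the kind bound by WT1 and by the related EGR factors, and a match is in capitals. For Pank2, with 3 annotated windows, the window that holds a match is given.
Pank2, chr2:131262589-131262888, plus strand: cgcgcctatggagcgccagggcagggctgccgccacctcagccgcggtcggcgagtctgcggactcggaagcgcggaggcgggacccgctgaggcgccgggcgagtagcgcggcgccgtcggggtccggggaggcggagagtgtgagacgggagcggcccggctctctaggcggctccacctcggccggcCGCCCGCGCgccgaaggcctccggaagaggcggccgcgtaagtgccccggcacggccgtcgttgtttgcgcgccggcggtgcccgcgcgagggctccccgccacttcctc
Pank3, chr11:35769245-35769544, plus strand: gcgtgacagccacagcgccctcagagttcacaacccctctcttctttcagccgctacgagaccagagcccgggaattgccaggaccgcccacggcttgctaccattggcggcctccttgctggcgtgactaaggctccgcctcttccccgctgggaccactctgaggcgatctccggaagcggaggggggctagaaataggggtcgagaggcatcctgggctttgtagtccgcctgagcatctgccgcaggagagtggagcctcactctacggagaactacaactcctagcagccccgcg
The Pank2 window has 1 match on the minus strand, which begins at position -60 from the annotated start, and a GC content of 78.0%. The Pank3 window has 0 matches and a GC content of 63.0%. Over all windows the GC content had a median of 52.7% and a 95th percentile of 73.7%, so the Pank2 window is unusually rich in GC. Of 9 windows found for 6 of the 8 genes, 1 held the motif, against 12.3% of all 32851 windows. Vnn1 and Coasy had no window, so their promoters were not searched. A match is a stretch of letters and says nothing of binding.

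Pantothenate kinases start the pathway. Pank3 encodes a cytosolic kinase, and on probe set 1433613_at its signals were 5203.5, 4768.6, 5058.6 and 4993.7 on Wt1 siRNA arrays 1 to 4, against 6603.8, 7071.6, 7051.6 and 6503.0 on control siRNA arrays 1 to 4. Every Wt1 siRNA array was lower than every control siRNA array. Pank3 fell to 73.5% of control on this probe set (log2 -0.44 ± 0.07, limma adjusted p = 0.000802). With arrays centred on their medians it was at -0.335 and did not pass (adjusted p = 0.1). Its other probe set, 1426259_at, had 569.6 to 841.5 after Wt1 siRNA and 606.2 to 919.6 after control siRNA, and did not pass (log2 -0.10 ± 0.18, adjusted p = 0.735).

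Pank2 encodes a pantothenate kinase whose human counterpart is found in mitochondria and is mutated in a neurodegeneration with brain iron accumulation. Its probe sets gave different readings. On 1452733_at the signals were 1444.6, 1516.1, 1738.6 and 1169.5 on Wt1 siRNA arrays 1 to 4, against 2131.7, 2392.8, 2616.2 and 2282.3 on control siRNA arrays 1 to 4. All Wt1 siRNA arrays were lower, at 61.8% of control (log2 -0.69 ± 0.13, limma adjusted p = 0.00247), and the call also held with median centring (-0.585, adjusted p = 0.0325).

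On the brightest Pank2 probe set, 1431948_a_at, the signals were 3909.9, 4013.1, 3941.4 and 4011.1 on Wt1 siRNA arrays 1 to 4, against 3464.0, 3585.6, 3452.9 and 3785.4 on control siRNA arrays 1 to 4. The groups did not overlap, with the Wt1 siRNA arrays above, but the difference did not pass (log2 0.15 ± 0.07, adjusted p = 0.143). The third Pank2 probe set, 1458358_at, was at 0.15 ± 0.22 (adjusted p = 0.679).

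The Pank2 probe sets were also compared as a ratio of signals on the same array, which no scaling of whole arrays can change. The log2 ratio of 1452733_at over 1431948_a_at was -1.78 to -1.18 on Wt1 siRNA arrays and -0.73 to -0.40 on control siRNA arrays, a difference of -0.85 (two-sided exact permutation test, p = 0.0286, the lowest possible). This comparison was chosen after the values were seen. Over the 7 pairs of probe sets of the genes other than Vnn1 its Benjamini-Hochberg value was 0.2, the lowest that a single pair can reach among 7 at this size, so the test decides nothing and the ratio is given as a description. The other 6 pairs had exact permutation p of 0.171 to 1.

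Pank1 encodes a further pantothenate kinase and is known as a PPAR alpha target in mouse liver. Its tested probe sets were at 0.08 ± 0.15 (1418715_at, adjusted p = 0.765) and 0.04 ± 0.13 (1431028_a_at, adjusted p = 0.837), with groups that overlapped. The signals on 1418715_at were 1549.9, 1438.0, 1513.2 and 950.0 on Wt1 siRNA arrays 1 to 4, against 1195.3 to 1313.8 on control siRNA arrays. Wt1 siRNA arrays 1 to 3 lay above every control siRNA array and array 4 below them all, and without array 4 the log2 difference was 0.24 (adjusted p = 0.123). The other Pank1 probe sets were not tested. On 1441765_at the signals were 242.7 to 378.5 after Wt1 siRNA and 206.7 to 337.9 after control siRNA, and on 1457110_at they were 152.6 to 244.7 after Wt1 siRNA and 9.0 to 246.1 after control siRNA.

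Ppcs encodes the synthetase that joins phosphopantothenate to cysteine. Its signals were 1048.6, 1206.0, 1212.2 and 869.8 on Wt1 siRNA arrays 1 to 4, against 1291.3, 1334.2, 1496.1 and 1228.7 on control siRNA arrays 1 to 4. All Wt1 siRNA arrays were lower, though the highest of them nearly reached the lowest control siRNA array, and the difference did not pass (log2 -0.31 ± 0.14, adjusted p = 0.122).

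Ppcdc encodes the decarboxylase, and none of its 3 probe sets passed. They had log2 differences of -0.04 ± 0.17, -0.07 ± 0.30 and -0.37 ± 0.24, and the groups overlapped on each of them. Coasy encodes the bifunctional enzyme that ends the pathway. Its signals on 1423701_at were 1076.7 to 1577.2 after Wt1 siRNA and 1059.0 to 1347.9 after control siRNA (log2 0.14 ± 0.14, adjusted p = 0.541), and on 1443829_x_at they were 656.0 to 848.9 after Wt1 siRNA and 698.0 to 887.2 after control siRNA (log2 -0.11 ± 0.15, adjusted p = 0.624).

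**Figure D2:**
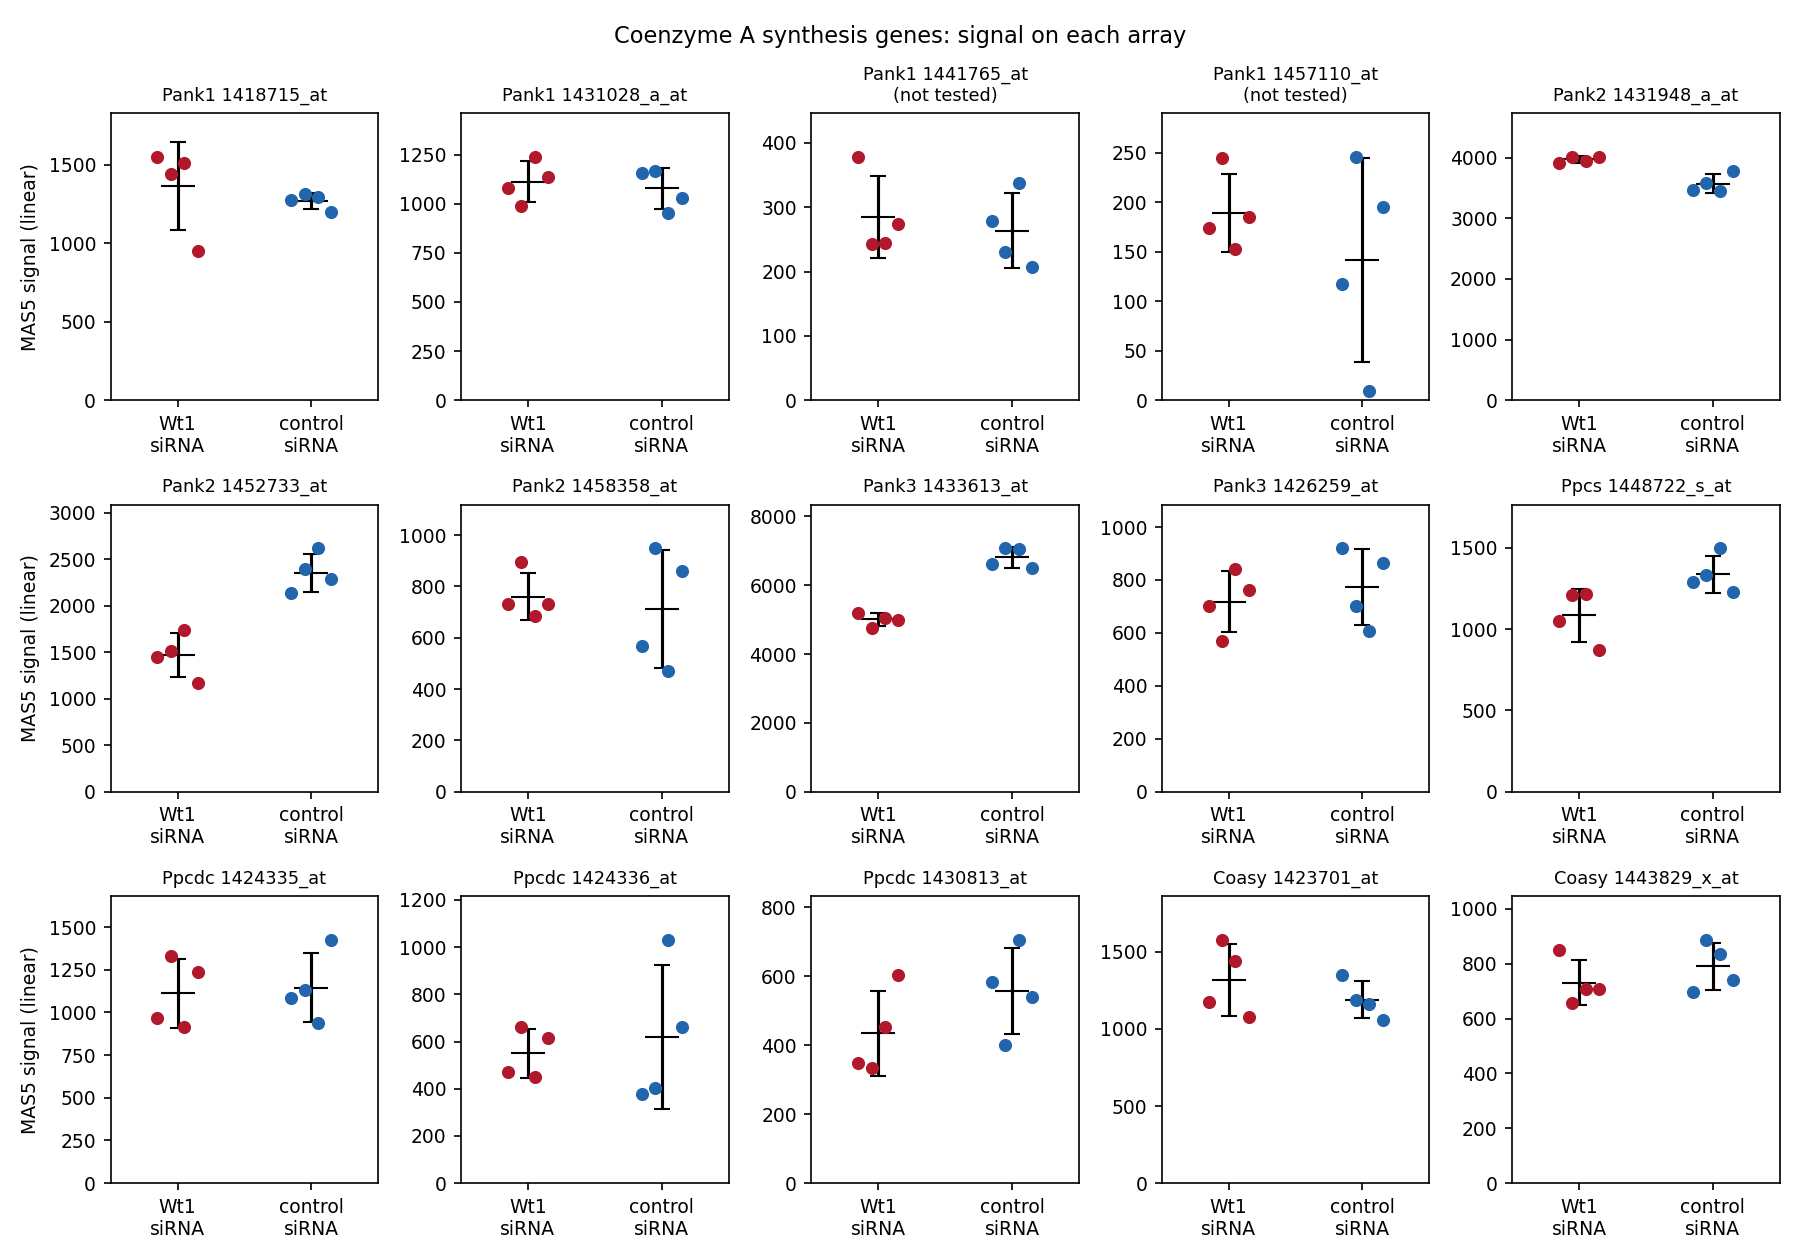
MAS5 signal of the 15 probe sets of the coenzyme A synthesis genes, 4 Wt1 siRNA arrays at left and 4 control siRNA arrays at right in each panel, with the group mean and SD as a bar and replicates 1 to 4 from left to right; axes are linear, start at 0 and differ between panels. Pank3 1433613_at and Pank2 1452733_at are lower on all Wt1 siRNA arrays, and most other panels overlap.

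**Figure D3:**
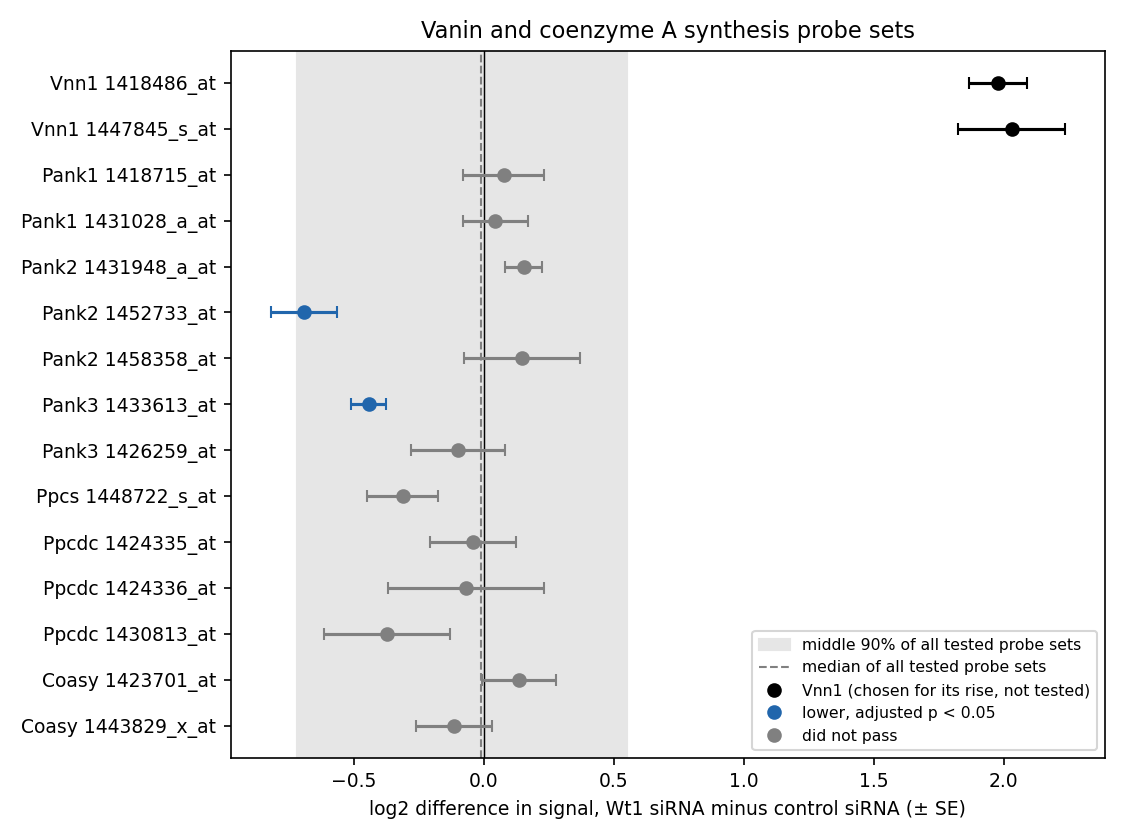
Log2 difference in signal (Wt1 siRNA minus control siRNA, points, with the SE of the fit) for the 15 member probe sets bright enough to be tested. Vnn1 was chosen for its rise, so its points are a description. The shaded band holds the middle 90% of all tested probe sets, -0.72 to 0.55, and the dashed line their median of -0.01. Vnn1 lies near 2, and the coenzyme A synthesis probe sets lie within the band.

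The genes around the pathway were described from 6 lists with 79 members, of which 72 had a probe set named here and 52 had one bright enough to be tested. The brightest probe set stood for each gene. Over all 11263 genes read in this way, 13.2% were higher, 14.6% lower and 27.8% called in either direction, with a median log2 difference of -0.004. Over the lists 11 genes were higher and 9 lower, and these counts were 7 and 5 when arrays were median centred. These counts include Pparg and Cdo1, which were bright enough to be tested only through the group where they were high.

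Of 10 tested genes that handle pantothenate or coenzyme A outside the synthesis steps, 2 rose, 0 fell and 8 did not pass. Their median was 0.04. Nudt19, which encodes a coenzyme A diphosphatase of peroxisomes known in mouse kidney, had signals of 5069.9 to 5570.5 on Wt1 siRNA arrays and 4083.8 to 4778.1 on control siRNA arrays (log2 0.24 ± 0.08, limma adjusted p = 0.0468), and its other probe set was at 0.39 (adjusted p = 0.0149). Dcakd, which encodes a protein with a dephospho-CoA kinase domain, was at 0.34 ± 0.11 (adjusted p = 0.037), with overlapping groups. Nudt19 passed when control siRNA replicate 3 or Wt1 siRNA replicate 4 was left out but not when any other array was, with adjusted p up to 0.121. It also did not pass with median centring (adjusted p = 0.108), quantile normalization (0.0524), no filter on signal (0.0874), no intensity trend (0.0885) or the replicate block (0.0648). Dcakd passed without Wt1 siRNA replicate 3 or control siRNA replicate 1 and in no other such fit, with adjusted p up to 0.0985, and it did not pass with no filter on signal (0.0678) or no intensity trend (0.0786). The vitamin transporter gene Slc5a6 was at -0.06 ± 0.16 (adjusted p = 0.839), Pank4, a kinase homologue, at 0.12 ± 0.12 (adjusted p = 0.481), and the mitochondrial coenzyme A carrier gene Slc25a42 at 0.01 ± 0.11 (adjusted p = 0.958).

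Genes that use coenzyme A moved in both directions. Of 8 tested acyl-CoA synthetase genes, which attach fatty acids to coenzyme A, 2 fell, 1 rose and 5 did not pass, with a median of 0.05. The share called in either direction was 37.5%, against 27.8% of all genes. Acsl4, whose enzyme prefers arachidonic acid, had 2693.4, 2606.8, 2464.2 and 1639.7 on Wt1 siRNA arrays 1 to 4, against 6033.1, 6476.7, 7346.8 and 7370.4 on control siRNA arrays 1 to 4. Acsl4 was thus at 34.0% of its control level (log2 -1.56 ± 0.15, limma adjusted p = 2.99e-05), and its other tested probe sets were at -1.27 and -1.18. Acsl3 was at -0.51 ± 0.11 (adjusted p = 0.00593), a call lost with median centring (adjusted p = 0.0681), and Acsl5 rose by 0.49 ± 0.08 (adjusted p = 0.0014).

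Of 7 tested acyl-CoA thioesterase genes, which release coenzyme A from acyl groups, 2 rose, 1 fell and 4 did not pass, with a median of 0.15. The share called in either direction was 42.9%, against 27.8% of all genes. The differences were small, with Acot7 at 0.29 ± 0.08 (limma adjusted p = 0.0187), Acot9 at 0.21 ± 0.07 (adjusted p = 0.0403) and Acot1 at -0.39 ± 0.11 (adjusted p = 0.0288). With median centring 0 genes of the list passed limma, and Acot7, Acot9 and Acot1 were then at adjusted p = 0.0668, 0.121 and 0.233. Acot7 was lost without Wt1 siRNA replicate 1 (adjusted p = 0.065) or 2 (0.0604) or control siRNA replicate 2 (0.0578). Acot1 was lost without replicate 2 or 3 of either group, with adjusted p of 0.0543 to 0.0858. Acot9 passed without control siRNA replicate 3 or Wt1 siRNA replicate 4 and in no other such fit.

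Among genes of the PPAR receptors, which sense fatty acids, Ppard was higher. Of 14 tested members of the PPAR list, 2 were higher (Ppard and Pparg), 2 fell and 10 did not pass, with a median of -0.035. The share called in either direction was 28.6%, near the 27.8% of all genes. The target gene Pdk4, whose kinase restrains pyruvate dehydrogenase, was too dim to be tested. It had 336.3 to 516.2 on Wt1 siRNA arrays and 130.1 to 182.3 on control siRNA arrays. All of its control siRNA signals lay under the highest background control. Of 20 list genes that were not tested, it was the 1 that passed with no filter on signal (limma adjusted p = 0.00543). Fgf21 and Ppargc1a, also not tested, were at -1.29 and -0.68, with overlapping groups. Ppard had 1833.7, 1902.4, 1282.1 and 2212.1 on Wt1 siRNA arrays 1 to 4, against 1147.3, 711.4, 679.1 and 516.8 on control siRNA arrays 1 to 4 (log2 1.28 ± 0.23, limma adjusted p = 0.00238). Pparg had 662.6, 560.3, 618.0 and 596.8 on Wt1 siRNA arrays 1 to 4, against 257.8, 32.4, 285.3 and 190.0 on control siRNA arrays 1 to 4 (log2 2.06 ± 0.56). Groups did not overlap for either receptor. Pparg entered the test only through its Wt1 siRNA arrays, so its call is no support for a rise. With no filter on signal its limma adjusted p was 0.0412.

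The size of the Pparg difference depends on control siRNA array 2, since without it the log2 difference was 1.34. Of the control siRNA arrays, 2 lay under the highest background control. Leaving out a Wt1 siRNA array put Pparg below the tested part of the probe sets. Ppara, the receptor for which Vnn1 is a known target in mouse liver, was not tested, with 12.7 to 246.3 on Wt1 siRNA arrays and 137.4 to 300.9 on control siRNA arrays. Of the targets, Acadl, which encodes long-chain acyl-CoA dehydrogenase, had 2285.3, 2040.7, 2093.2 and 1836.5 on Wt1 siRNA arrays 1 to 4, against 7052.3, 5489.8, 6232.9 and 7046.0 on control siRNA arrays 1 to 4. Its level after Wt1 siRNA was 32.0% of that after control siRNA (log2 -1.64 ± 0.10, adjusted p = 2.21e-06). The peroxisomal thiolase gene Acaa1a was lower on its brightest probe set only, 1456737_x_at, at -1.02 ± 0.21 (adjusted p = 0.00441). Its other tested probe set was at 0.00, so the readings of the gene differ. The carnitine palmitoyltransferase gene Cpt1a was at -0.01 ± 0.08 (adjusted p = 0.935).

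Cysteamine, the other product of vanins, is oxidised to hypotaurine and on to taurine. Of 5 tested genes of cysteamine, hypotaurine and taurine, 3 were lower, 0 were higher and 2 did not pass, with a median of -0.40. The share called in either direction was 60.0%, against 27.8% of all genes, of which 14.6% were lower. Of the 3 lower genes, Cdo1 entered the test only through its control siRNA arrays, so its call is no support for a fall. Cdo1, which encodes cysteine dioxygenase, had 131.9, 176.1, 257.7 and 290.2 on Wt1 siRNA arrays 1 to 4, against 446.4, 529.4, 722.1 and 605.1 on control siRNA arrays 1 to 4. It was lower on every Wt1 siRNA array, 2 of which lay under the highest background control (log2 -1.47 ± 0.28). With no filter on signal its limma adjusted p was 0.00717. Csad, encoding cysteine sulfinate decarboxylase, had 456.4 to 683.8 on Wt1 siRNA arrays and 734.1 to 1039.6 on control siRNA arrays (log2 -0.76 ± 0.18, adjusted p = 0.0113).

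Ado, which encodes the dioxygenase that acts on cysteamine itself, had 3531.2 to 4938.3 on Wt1 siRNA arrays and 5169.3 to 6168.4 on control siRNA arrays (log2 -0.36 ± 0.11, limma adjusted p = 0.0281). The Ado call was lost with median centring (-0.256, adjusted p = 0.311), no filter on signal (0.0518) and no intensity trend (0.0635). It was also lost without Wt1 siRNA replicate 3 (adjusted p = 0.0636) or control siRNA replicate 3 (0.0531) or 4 (0.0574). The other Ado probe sets were at -0.63 and -0.10. The taurine transporter gene Slc6a6 did not pass (log2 0.09 ± 0.10, adjusted p = 0.566), and its 3 other tested probe sets were at -0.29 to 0.80.

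In mice, cysteamine from vanin 1 is also known to act on glutathione synthesis. Of 8 tested genes of glutathione synthesis and recycling, 4 rose, 1 fell and 3 did not pass, with a median of 0.23. The share called in either direction was 62.5%, against 27.8% of all genes, of which 13.2% were higher and 14.6% lower. Gclc encodes the catalytic subunit of glutamate cysteine ligase, the rate-limiting enzyme. It had 16715.1, 17226.5, 16301.1 and 17016.2 on Wt1 siRNA arrays 1 to 4, against 9631.5, 9443.5, 7076.3 and 7351.4 on control siRNA arrays 1 to 4. Every Wt1 siRNA array lay above every control siRNA array, a 2.03-fold rise (log2 1.02 ± 0.10, limma adjusted p = 4.69e-05), and its other probe set was at 0.83.

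Gclm, the regulatory subunit gene, rose by 0.94 ± 0.15 (limma adjusted p = 0.00108) on its brightest probe set, while another was at -0.14. The glutathione reductase gene Gsr rose by 0.57 ± 0.09 (adjusted p = 0.00123), with its other probe set at 0.82, and Gpx1, a peroxidase gene, rose by 0.26 ± 0.07 (adjusted p = 0.0277). Chac1, which encodes an enzyme that degrades glutathione, was at -0.51 ± 0.14 (adjusted p = 0.0184), a call lost with median centring and without Wt1 siRNA replicate 1 or control siRNA replicate 1 or 4. Leaving out single arrays gave 3 or 4 rises in this list. There were 3 with median centring, the replicate block, no filter on signal or no intensity trend. Wherever the count was 3, Gclc, Gclm and Gsr passed and Gpx1 did not. The synthetase gene Gss did not pass (0.20 ± 0.10, adjusted p = 0.175).

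**Figure D4:**
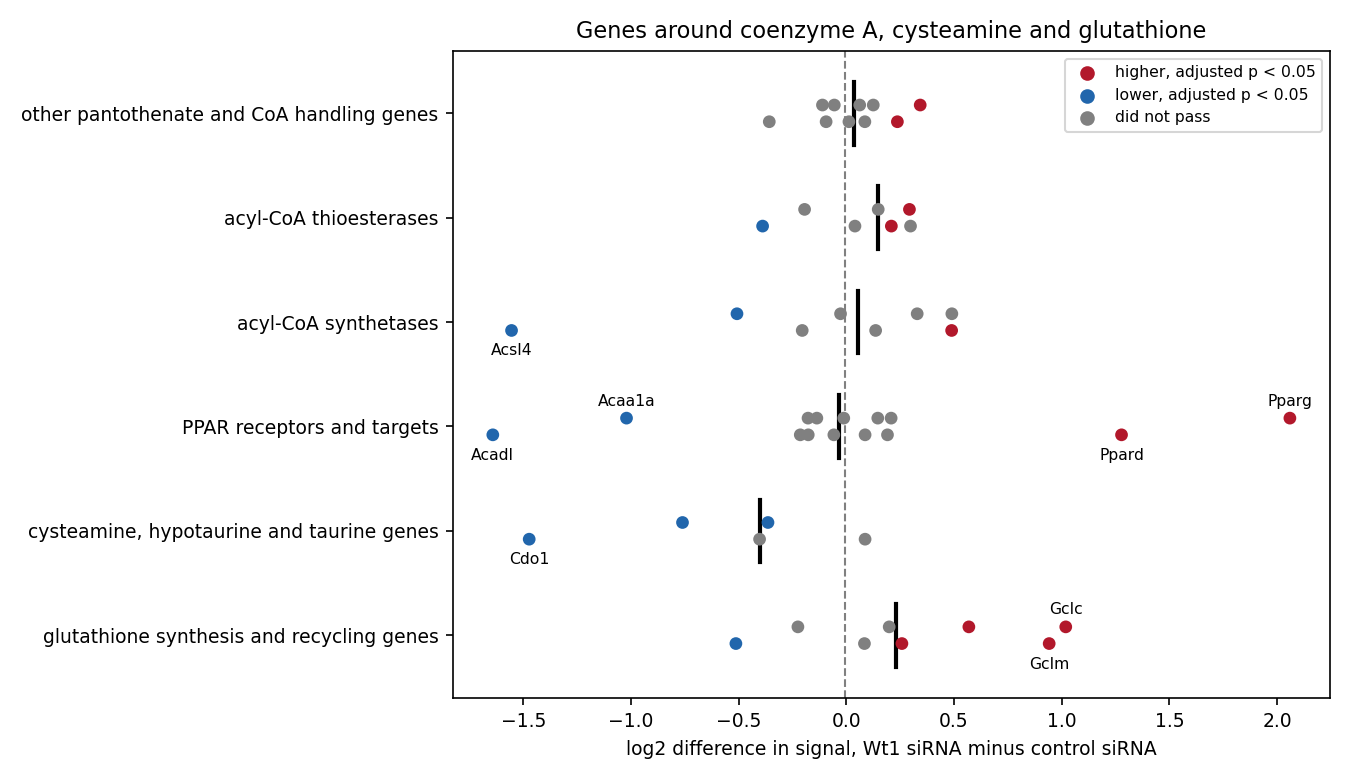
Log2 difference in signal (Wt1 siRNA minus control siRNA) of each tested gene in the 6 lists, 1 point per gene on its brightest probe set, with the list median as a black bar and the median of all genes as a dashed line. The glutathione list holds 4 genes that were higher and 1 that was lower, the cysteamine list 3 that were lower, and the PPAR list Pparg and Ppard at right and Acadl and Acaa1a at left. Pparg and Cdo1 entered the test only through the group where they were high.

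The genes whose log2 signal most resembled that of Vnn1 over the 8 arrays, by Pearson correlation among 11262 other genes, were Mmp3 (0.998), Ero1a (0.994), Spg20 (0.993), Cd68 (0.993) and Gtf2h1 (0.993). These values are a description and rest mainly on the gap between the groups. The deviations from the group means correlated with those of Vnn1 at 0.909 for the stromelysin gene Mmp3 and at 0.708 to 0.732 for the other 4. The genes were picked for their likeness to Vnn1 over the same arrays, so these correlations are no separate support. Mmp3 had 2607.9, 3022.4, 2734.5 and 2316.8 on Wt1 siRNA arrays 1 to 4, against 783.2, 787.8, 749.9 and 745.7 on control siRNA arrays 1 to 4, and like Vnn1 it was highest on array 2 and lowest on array 4 in both groups.

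Vnn1 is known from proximal tubule, and markers of other cell types were read beside it. Over all genes on their brightest probe set, 13.2% were higher, 14.6% lower and 27.8% called in either direction. Each marker list held few tested genes, so its counts are a description. Of 7 measured proximal tubule markers 3 were tested, of which Aqp1 was at 0.65 ± 0.21 (limma adjusted p = 0.046), Lrp2 at -0.98 ± 0.18 (adjusted p = 0.00215; its other probe sets at -1.67 and -0.16) and Slc5a2 at -0.06 ± 0.23 (adjusted p = 0.881). The summed signal of the 7 was 2195 to 2521 on Wt1 siRNA arrays and 2011 to 3271 on control siRNA arrays, and Slc34a1, Cubn, Hnf4a and Slc22a6 were not bright enough to be tested. Of 6 leukocyte and macrophage markers 4 were tested, 1 was higher (Cd68, at 0.99 ± 0.10), 2 were lower (Csf1r and Adgre1) and 1 did not pass (Cd14), with a summed signal of 4784 to 5075 on Wt1 siRNA arrays and 4007 to 5263 on control siRNA arrays. Csf1r was read on its brightest probe set, and its other tested probe sets were at -0.19 and -0.04. The leukocyte marker Ptprc did not exceed 137.2 on any array, under the highest background control. Both tested podocyte markers were lower, Podxl at -1.31 ± 0.26 (limma adjusted p = 0.004) and Synpo at -1.44 ± 0.23 (adjusted p = 0.00105). The other tested probe set of Podxl was at -0.11. The podocyte marker Nphs1 was too dim to be tested, with 116.0 to 369.3 on Wt1 siRNA arrays and 131.8 to 358.5 on control siRNA arrays. Of 5 tested epithelial markers, Cdh1 (0.955) and Krt8 (0.55) were higher, Epcam (-2.10) and Krt18 (-0.19) were lower and Krt19 did not pass. The endothelial marker Kdr was at -0.45 ± 0.11 (adjusted p = 0.0122), and its list had no other tested gene. In the mesenchyme list Osr1 was higher (0.75), Col1a1 lower (-0.65) and 5 of the 7 tested did not pass. The part of other cell types in the Vnn1 difference was not tested.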

How the data were processed

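Total RNA of 8 LB-22 samples was measured on 8 arrays. The authors deposited MAS5 signal intensity values on a linear scale, per the submitters' processing notes and the titles. No source used here gives a version of MAS5. Array controls aside, there are 45037 probe sets, of which 34945 have 1 gene symbol in the platform annotation, 932 have several and 9160 are unnamed here.

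Log2 of the deposited intensity was fitted with limma 3.58.1 in R 4.3.3 (lmFit, eBayes with an intensity trend), Wt1 siRNA minus control siRNA, with no further normalization and no replicate block. The brighter share of 0.5 of the probe sets by mean log2 signal was tested (22518, lowest mean 291.1), with Benjamini-Hochberg adjustment over all of them and a threshold of 0.05. The fit was tested on simulated data. Exact permutation tests were two-sided and used scipy 1.17.1. Alternatives were a replicate block, quantile normalization, median centring, 16 or 64 added to the signal, no filter, the brightest share of 0.25, no trend, 1 probe set per gene, and leaving out each array.

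The members and lists were chosen with earlier results of these data known. By rule the text names all member probe sets, the 3 called genes of each list with the largest difference, the 5 genes most like Vnn1 and its 3 neighbours on either side. Other genes of the lists were named after their values were seen. Arrays correlated at 0.966 to 0.985 within groups and at 0.937 to 0.967 between groups, and no pair of arrays shared more than 42 identical values.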

Additional observations from a re-analysis of the deposited data

Results flagged for a closer look

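Of 72 groups of 4 arrays examined for a single array far from the others, 2 were marked, while chance marks about 1 group in 20. For Pank1 1418715_at, Wt1 siRNA replicate 4 was the lowest of its group at a signal of 950, with a gap of 0.847 of the group's range to the nearest other array. For Gclm 1418627_at, Wt1 siRNA replicate 4 was the highest of its group at 8323.2, with a gap of 0.965 of the range.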

How the results depend on the processing

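The Wt1, Acadl, Acsl4, Ppard, Gclc, Gclm and Gsr differences kept their direction under every alternative that tested them. Vnn1 did too, but it was chosen for its rise in these same arrays, so this is no support for the rise. With median centring the lower probe sets numbered 1369 over all probe sets and 1 among the members (Pank2 1452733_at), and the lists held 7 higher and 5 lower genes. With 1 probe set per gene 1687 were lower over all, and 1 among the members. Without the intensity trend the lists held 6 higher genes, and in the brightest share of 0.25 they held 5 lower genes. Leaving out single arrays gave 1694 to 2676 higher and 2040 to 3081 lower probe sets over all, 2 lower member probe sets each time, and 5 to 11 higher and 7 to 9 lower list genes. Same-numbered arrays of the groups had deviations that correlated at -0.062 to 0.082, and differently numbered arrays at -0.202 to 0.162. A shared culture need not show in such values, so they do not settle whether the numbers pair the samples. With the replicate block 2133 probe sets were higher and 2475 lower, 2 member probe sets were lower, and the lists held 8 higher and 8 lower genes. The number of arrays and signal near background limit the dim members Vnn3, Pank1 1441765_at and Pank1 1457110_at.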

Other observations

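Among the 20 list genes that were not tested because of low signal, groups did not overlap for 2. The share over all tested probe sets was 27.0%, and none was computed over the dimmer ones, so the count is a description. Pdk4, which encodes a kinase that restrains pyruvate dehydrogenase and is a PPAR target, had 374.6, 476.1, 336.3 and 516.2 on Wt1 siRNA arrays 1 to 4, against 182.3, 165.6, 130.1 and 143.4 on control siRNA arrays 1 to 4. Its control siRNA signals all lay under the highest background control of 227.2, and with no filter on signal its limma adjusted p was 0.00543. Ehhadh, which encodes a peroxisomal enzyme of fatty acid oxidation, had 186.7 to 246.3 on Wt1 siRNA arrays and 122.7 to 176.5 on control siRNA arrays (limma adjusted p = 0.372 with no filter). Slc7a11, the cystine transporter gene that feeds glutathione synthesis, had 206.6 to 478.4 on Wt1 siRNA arrays and 136.1 to 242.2 on control siRNA arrays (limma adjusted p = 0.0619 with no filter).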
